A study of Mus musculus with 7 samples.

Results

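The miR-199 and miR-214 microRNAs were followed in cells sorted by fluorescence from microdissected, papain-dissociated spinal cords of mouse embryos. The members were the 6 rows named mmu-miR-199a-3p, mmu-miR-199b-3p, mmu-miR-199a-5p, mmu-miR-199b-5p, mmu-miR-214-3p and mmu-miR-214-5p, chosen by name from 1908 mature microRNAs in each of 2 tables. The E10.5 table held 2 libraries of motoneurons, the GFP-positive cells of Hb9::gfp embryos in which GFP marks Hb9-expressing motoneurons, and 2 libraries of the GFP-negative spinal cells of the same line. The E12.5 table held 1 library each of Hb9::gfp GFP-positive motoneurons, of V2a interneurons and of V3 interneurons. V2a cells were tdTomato-positive cells of Chx10::cre;Rosa26::LSL::tdTomato embryos, and V3 cells were tdTomato-positive cells of Sim1::cre;Rosa26::LSL::tdTomato embryos. In these 2 lines Cre recombinase, driven by Chx10 or Sim1, switches on a lasting red reporter, so descendants of any cell that once expressed the driver are also marked. The labels do not state whether the replicates were separate litters, sorts or library preparations. The p-values below therefore reflect only how far these libraries spread, and that spread may be technical.

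miR-199 and miR-214 are known as microRNAs of mesenchyme, the loose tissue that gives rise to bone, cartilage, connective tissue and vessel walls. In the mouse, the transcription factor Twist1 drives Dnm3os, a long RNA that carries the hairpins of miR-199a-2 and miR-214, and mice that lack Dnm3os have skeletal defects. A hairpin is cut into a duplex, and either strand (5p from its left arm, 3p from its right arm) can be loaded into an Argonaute protein. The loaded strand recognises messenger RNAs mainly through its seed, bases 2 to 8. The members thus report on hairpins of 4 loci, each of which can yield both strands.

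The hairpins are shown because the likeness of 3 of them decides how the reads could be assigned. Sequences and positions are from RefSeq on GRCm38.p6, and capitals mark the mature strands that RefSeq annotates. RefSeq mature sequences matched 5 of the 6 rows, all but miR-199b-5p.
Mir199a-2: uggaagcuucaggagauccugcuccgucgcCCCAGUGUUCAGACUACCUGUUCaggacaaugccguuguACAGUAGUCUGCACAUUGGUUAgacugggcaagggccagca
Mir199a-1: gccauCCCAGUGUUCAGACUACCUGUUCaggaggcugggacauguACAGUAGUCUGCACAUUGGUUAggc
Mir199b: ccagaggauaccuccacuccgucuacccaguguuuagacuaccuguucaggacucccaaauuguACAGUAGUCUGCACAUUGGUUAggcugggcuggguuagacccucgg
Mir214: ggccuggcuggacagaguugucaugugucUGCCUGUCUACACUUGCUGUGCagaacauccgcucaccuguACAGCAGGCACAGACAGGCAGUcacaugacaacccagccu

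Mir199a-2 (chr1:162217814-162217923, plus strand) and Mir214 (chr1:162223368-162223477, plus strand) lie 5444 bases apart. In the GENCODE M21 annotation of GRCm38, both sit in exons of Dnm3os and, on the opposite strand, in an intron of Dnm3, a dynamin gene. Mir199a-1 (chr9:21496495-21496564, minus strand) lies opposite an intron of Dnm2, and Mir199b (chr2:32318460-32318569, plus strand) opposite an intron of Dnm1. All 4 hairpins are thus antisense to introns of dynamin genes. The 22 bases of miR-199a-3p occur without a difference in all 3 miR-199 hairpins, so no read of the mature 3p strand can be told to come from a given locus. The 23 bases of miR-199a-5p occur unchanged in Mir199a-1 and Mir199a-2. The best matching stretch of Mir199b differs from them at 1 base, C10U, counted from the 5′ end of miR-199a-5p.

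The mature strands are given with their seeds in capitals, since the seed is the part by which microRNAs are grouped into target families.
miR-199a-3p and miR-199b-3p: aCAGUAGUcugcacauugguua
miR-199a-5p: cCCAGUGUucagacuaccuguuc
miR-214-3p: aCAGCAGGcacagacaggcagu
miR-214-5p: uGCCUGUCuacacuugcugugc

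The members carry 4 different seeds. Among the 1603 table rows with a RefSeq mature sequence, 1 other row shared a seed with a member: miR-761 has the seed of miR-214-3p. miR-761 was at 1.25 and 0 RPM (reads scaled to a library sum of 1000000) in the E10.5 motoneuron libraries and at 0 RPM in both GFP-negative libraries, where 3 reads would be 3.86 and 5.57 RPM. At E12.5 it stood at 1.69 TPM in motoneurons and 0 in V2a and V3. Nearly all reads with the miR-214-3p seed therefore lay in miR-214-3p itself.

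The depth behind these values was 493234 to 802752 reads at E10.5 and about 3603600 to 4605400 reads at E12.5. TPM, used for the E12.5 table, has the same sum and also takes the length of each microRNA into account. Each table has its own scaling, and tests were therefore kept within the E10.5 table. No messenger RNA was measured here, so the name mesenchymal could be set only against other microRNAs. miR-218-5p, the motoneuron microRNA of the study's title, marked the sorts, at 177885 and 200305 RPM in E10.5 motoneurons against 6623 and 7315 RPM in GFP-negative cells.

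The first comparison asked how far miR-199 and miR-214 differed between motoneurons and the other spinal cells at E10.5. All 6 rows were far lower in motoneurons, and together they fell to 0.131% and 0.0308% of all reads there, against 7.26% and 8.37% in the GFP-negative libraries. Because the miR-199a and miR-199b rows share reads, the 2 rows of each strand were summed before the strands were described.

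The miR-199-3p sum, the most abundant strand of the group, was at 726 and 166 RPM in motoneurons, against 43532 and 49107 RPM in GFP-negative cells. The 4 values rest on 583 and 82 reads in motoneurons and on 33845 and 26451 reads in GFP-negative cells. Both motoneuron libraries lay far below both GFP-negative libraries, and motoneuron replicate 1 lay above replicate 2. The means were 446 ± 396 RPM in motoneurons and 46319 ± 3943 RPM in GFP-negative cells (SD, n = 2 each). On the log2 scale the strand fell by 7.05 with an SE of 0.63, and limma gave an adjusted p of 0.000946.

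The miR-199-5p sum, the partner strand of the same hairpins, was at 420 and 91.2 RPM in motoneurons, against 21098 and 25787 RPM in GFP-negative cells. The groups did not overlap, with the same order of the motoneuron replicates. The log2 fold change was -6.89, with an SE of 0.66 (adjusted p = 0.00109 by limma), against -7.05 for the 3p strand. Both strands come from the same libraries, so these SEs do not measure the spread of their difference. Among the 420 rows left once shared rows were summed, 29.5% were called lower.

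mmu-miR-214-3p, the guide strand of the Mir214 hairpin and known in the mouse for repressing the Polycomb gene Ezh2 in muscle, was at 131 and 42.6 RPM in motoneurons, against 6996 and 7508 RPM in GFP-negative cells. Its values also separated without overlap, and its GFP-negative replicates were the closest of any strand. Its log2 fold change was -6.58 with an SE of 0.47 (adjusted p = 0.000251 by limma).

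mmu-miR-214-5p, the less abundant strand of Mir214, was at 29.9 and 8.11 RPM in motoneurons, or 24 and 4 reads, against 993 and 1257 RPM in GFP-negative cells. With 4 reads in motoneuron replicate 2, the counting error there is large. The groups did not overlap, and the strand fell by 6.06 on the log2 scale with an SE of 0.55 (adjusted p = 0.00051 by limma).

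**Figure D1:**
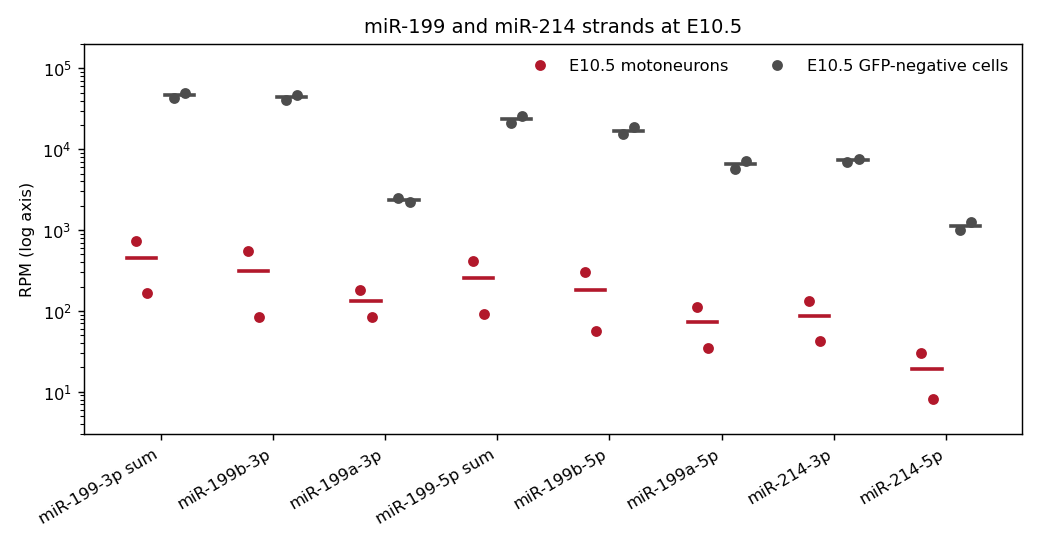
Level of each miR-199 and miR-214 row, and of the summed rows of each miR-199 strand, in RPM on a log axis in the 4 E10.5 libraries; points are libraries and bars are group means (n = 2). Every motoneuron point lies below every GFP-negative point of the same row, and motoneuron replicate 1 lies above replicate 2.

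All 6 rows were tested and called lower, where 30.7% of the 492 tested microRNAs were called lower. Over the 6 rows the median log2 fold change was -6.62, against -0.34 over all tested microRNAs. The 5 most negative log2 fold changes of the whole table belonged to miR-199b-3p, both 5p rows of miR-199 and both strands of miR-214. The exception was miR-199a-3p, in place 18. In all 6 rows the motoneuron libraries lay below the GFP-negative ones, a pattern shown by 48.6% of tested microRNAs. Of the 6 rows, 5 exceeded the abundance filter of 15.2 RPM in all 4 libraries, and miR-214-5p missed it in motoneuron replicate 2.

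**Figure D2:**
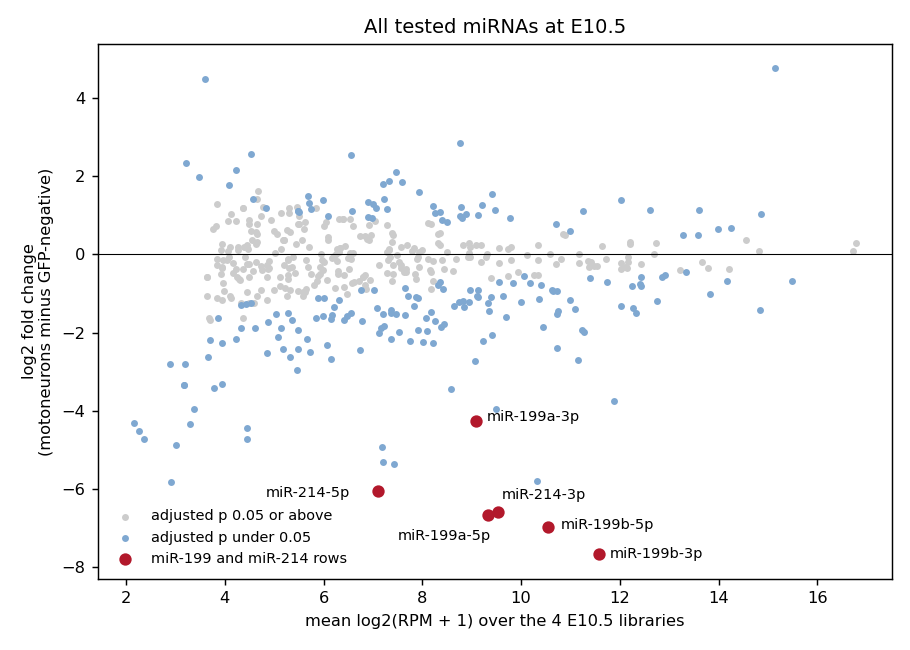
Log2 fold change of motoneurons minus GFP-negative cells against the mean log2(RPM + 1) for the 492 microRNAs tested at E10.5; each point is a microRNA, and large red points are the 6 miR-199 and miR-214 rows. All rows of the group except miR-199a-3p, at -4.25, lie at the bottom of the plot, from -6.06 to -7.68.

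The size of the fall depended on which motoneuron library was used. Without motoneuron replicate 1 the log2 fold change was -8.11 for the miR-199-3p sum, -7.98 for the miR-199-5p sum, -7.38 for miR-214-3p and -6.94 for miR-214-5p. Without replicate 2 the values were -5.99, -5.79, -5.78 and -5.18 in the same order. Every strand was thus lower with either library, but by a larger factor with replicate 2 alone.

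The rows of one strand did not move alike. mmu-miR-199b-3p was at 545 and 83.1 RPM in motoneurons and 41009 and 46899 RPM in GFP-negative cells. It fell by 7.68 on the log2 scale, with an SE of 0.75 (adjusted p = 0.000555 by limma). mmu-miR-199a-3p was at 181 and 83.1 RPM in motoneurons and 2522 and 2208 RPM in GFP-negative cells. It fell by 4.25 on the log2 scale, with an SE of 0.36 (adjusted p = 0.000436 by limma). The mature sequences of these rows are identical, so the rows cannot be read as separate measurements of the mature strand. The ratio of miR-199b-3p to miR-199a-3p was 3.01 and 1.0 in the motoneuron libraries, against 16.3 and 21.2 in the GFP-negative libraries. In motoneuron replicate 2 the 82 reads were divided evenly, 41 to each row.

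The 5p rows, from hairpin arms that differ at 1 base, moved together. mmu-miR-199b-5p was at 306 and 56.8 RPM in motoneurons and 15345 and 18548 RPM in GFP-negative cells (adjusted p = 0.000555 by limma, log2 fold change -6.98, SE 0.68). mmu-miR-199a-5p was at 113 and 34.5 RPM in motoneurons and 5752 and 7239 RPM in GFP-negative cells (adjusted p = 0.000268 by limma, log2 fold change -6.66, SE 0.50). In reads, miR-199b-5p held 246 and 28 in motoneurons and miR-199a-5p held 91 and 17. The ratio of the b row to the a row was 2.70 and 1.65 in motoneurons, against 2.67 and 2.56 in GFP-negative cells. The b row was therefore the larger in all 4 libraries.

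Ratios between strands were taken within each library, where the scaling cancels. With 2 libraries a group the smallest two-sided exact permutation p is 0.333, so they are described without a test. The 3p sum exceeded the 5p sum of miR-199 by 1.73 and 1.82 times in motoneurons, against 2.06 and 1.90 times in GFP-negative cells. miR-214-3p exceeded miR-214-5p by 4.37 and 5.25 times in motoneurons, against 7.05 and 5.97 times in GFP-negative cells. Per read of the miR-199-3p sum there were 0.18 and 0.256 reads of miR-214-3p in motoneurons, against 0.161 and 0.153 in GFP-negative cells. In none of these 3 ratios did the groups overlap, but the gaps were small beside those in level. There the GFP-negative mean was 59.2 to 104 times the motoneuron mean. The ratio of 5.25 in motoneuron replicate 2 rests on 21 reads of miR-214-3p and 4 of miR-214-5p, so its counting error is large.

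The level left in motoneurons was next set against that of other tissue microRNAs. As a percentage of the mean GFP-negative level, the miR-199-3p sum stood at 1.57% in motoneuron replicate 1 and 0.359% in replicate 2. The miR-199-5p sum stood at 1.79% and 0.389%, miR-214-3p at 1.80% and 0.587%, and miR-214-5p at 2.66% and 0.721%. The residue was thus 3.07 to 4.60 times higher in replicate 1 than in replicate 2 for these 4 quantities. Over all 485 tested microRNAs above 0 in every E10.5 library, the median ratio of replicate 1 to replicate 2 was 1.04. Among them, the 139 called lower other than the members had a median of 1.10. Single microRNAs differed in this. In replicates 1 and 2 miR-206-3p was at 71.3 and 8.95 RPM, a gap like that of the members. miR-455-5p, at 112 and 166 RPM, went the other way. In these bulk libraries fewer cells of a type and less RNA per cell cannot be told apart.

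Other microRNAs of mesenchyme, cartilage and smooth muscle were read from a list of 8, of which 7 were lower and none higher. Over all 492 tested microRNAs, 30.7% were called lower. Of those 7, miR-143-5p, miR-145a-5p and miR-145a-3p passed the abundance filter through the GFP-negative libraries alone, so their direction was fixed by the filter. Over all 8 the median log2 fold change was -3.20, but it includes the rows whose direction was fixed. The rows free to go either way ran from -5.78 (miR-143-3p) to -0.46 (miR-140-5p). The summed level of the list was 2090 and 1721 RPM in motoneurons, against 13319 and 15147 RPM in GFP-negative cells. miR-143-3p, of the smooth muscle cluster with miR-145, stood at 2.70% and 1.19% of the GFP-negative level in motoneuron replicates 1 and 2 (adjusted p = 0.000166 by limma, log2 fold change -5.78, SE 0.36). Its partner strand miR-143-5p was at 1.25 and 0 RPM in motoneurons, against 25.7 and 70.55 RPM in GFP-negative cells. miR-145a-5p was at 6.23 and 2.03 RPM in motoneurons, against 88.8 and 113 RPM in GFP-negative cells. Both were at only a few reads in motoneurons. The remaining strand of that cluster, miR-145a-3p, was at 0 in both motoneuron libraries, against 41.2 and 74.3 RPM in GFP-negative cells.

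The cartilage microRNAs of that list were much less depleted. miR-140-3p, the abundant strand of a cartilage hairpin, fell by 1.40 on the log2 scale with an SE of 0.17 (adjusted p = 0.00122 by limma), while miR-140-5p, at -0.46 on the same scale, did not pass (adjusted p = 0.169 by limma). miR-455-5p and miR-455-3p, from another hairpin active in cartilage, had -1.97 (limma adjusted p = 0.0021) and -1.70 (limma adjusted p = 0.00371). The 2 strands of miR-140 and the 2 of miR-455 were each at 20.7% or more of their GFP-negative level in both motoneuron libraries.

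Of the 3 skeletal muscle microRNAs tested, all were lower, with a median log2 fold change of -3.95. Of these, miR-133b-3p passed the filter through the GFP-negative libraries alone, so its direction was fixed. The others were miR-1a-3p at -3.95 and miR-206-3p at -5.37. For these counts and those below, the share called lower over all 492 tested microRNAs was 30.7%. The list, whose miR-1a-3p, miR-206-3p, miR-133a-3p and miR-133b-3p share reads with other rows, stood at 8.89% and 3.25% of the GFP-negative level in motoneuron replicates 1 and 2. All 3 sensory neuron microRNAs were lower too, with a median of -1.99, but at 21.1% and 24.9% of the GFP-negative level. The endothelial list stood at 61.5% and 35.7%, and its only tested member, miR-126a-3p, fell by 1.07 on the log2 scale (adjusted p = 0.0344 by limma). None of the blood list was abundant enough to test, with sums of 12.46 and 6.08 RPM in motoneurons and 30.9 and 13.0 RPM in GFP-negative cells. The 2 motoneuron sums were a few reads of different members, miR-451a at 12.46 and 0 RPM and miR-144-5p at 0 and 6.08 RPM. Motoneuron replicate 1 exceeded replicate 2 in the mesenchymal, muscle and endothelial sums, but not in the sensory neuron sum or in either strand of miR-455. The part of these cell types in the miR-199 and miR-214 values was not tested.

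**Figure D3:**
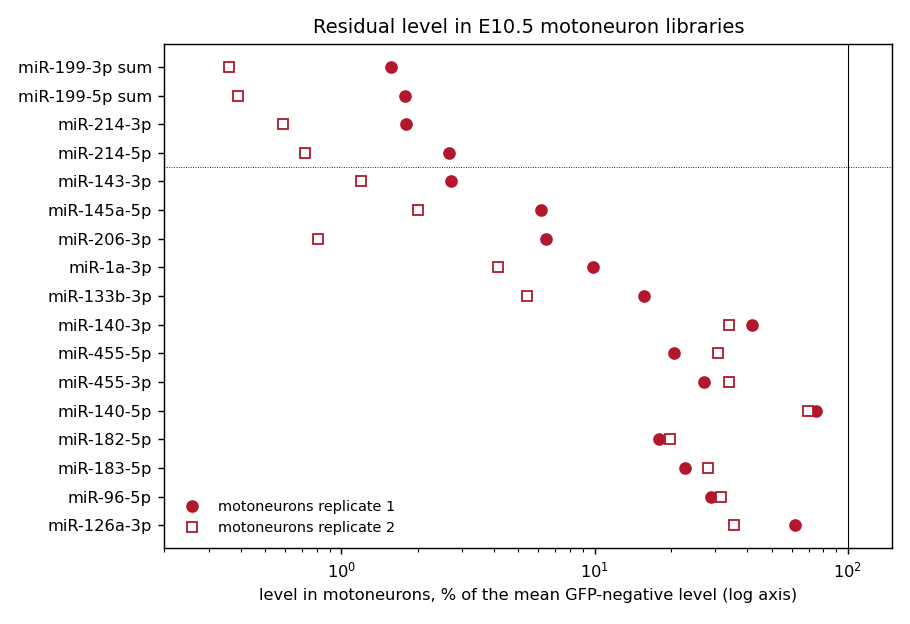
Level in each E10.5 motoneuron library as a percentage of the mean of the 2 GFP-negative libraries, on a log axis, for miR-199 and miR-214 (above the dotted line) and for 13 of the 15 tested list microRNAs of mesenchyme, muscle, sensory neurons and endothelium; filled circles are replicate 1 and open squares replicate 2. miR-199 and miR-214 lie between 0.359% and 2.66%, a range that also holds replicate 2 of miR-143-3p, miR-145a-5p and miR-206-3p. The vertical line marks 100%, and not drawn because the axis has no 0 are miR-145a-3p (0% in both replicates) and miR-143-5p (2.60% and 0%).

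The microRNAs most like the group in pattern were sought over the 4 E10.5 libraries, by the Euclidean distance of centred log2(RPM + 1) values to the mean profile of the 6 rows. The 5 nearest were miR-143-3p at a distance of 0.77, miR-483-3p at 1.20, miR-206-3p at 1.22, miR-483-5p at 1.50 and miR-145a-3p at 1.51. The members themselves lay between 0.29 (miR-214-3p) and 2.20 (miR-199a-3p) from their own mean. The same 5 were nearest to miR-214-3p alone. miR-483, whose hairpin lies in an intron of the growth factor gene Igf2, had 41.1 and 12.2 RPM of its 3p strand in motoneurons, against 1150 and 756 RPM in GFP-negative cells. miR-206-3p, a skeletal muscle microRNA, was at 71.3 and 8.95 RPM in motoneurons, against 1078 and 1145 RPM in GFP-negative cells. Its row shares reads with other rows. All 5 were lower in motoneurons, and the 4 with reads there were higher in motoneuron replicate 1 than in replicate 2, as the members were. Both traits follow from the choice of these microRNAs by likeness over the same 4 libraries, so they are description only.

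The next comparison asked how the strands were distributed among motoneurons, V2a interneurons and V3 interneurons at E12.5. With 1 library per population there is no replicate check. Intervals of levels are exact 95% Poisson intervals, and those of ratios come from exact 95% binomial intervals of the reads. Both kinds cover counting error only. All 6 rows were above 0 in every library, but the group held only 0.0141% of the motoneuron library, 0.0174% of the V2a library and 0.0217% of the V3 library.

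The miR-199-3p sum was at 34.1 TPM in motoneurons (interval 28.3 to 40.7, 121 reads), 26.9 TPM in V2a (22.3 to 32.2, 121 reads) and 82.2 TPM in V3 (73.7 to 91.4, 342 reads). V3 was the highest of the 3 libraries, and the intervals of motoneurons and V2a overlapped. The ratio of motoneurons to V3 was 0.414 (0.334 to 0.511) and that of V2a to V3 was 0.327 (0.264 to 0.404).

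The miR-199-5p sum followed the same order at the top, at 24.0 TPM in motoneurons (19.2 to 29.5, 89 reads), 25.7 TPM in V2a (21.4 to 30.8, 121 reads) and 70.4 TPM in V3 (62.7 to 78.7, 306 reads). The ratio of motoneurons to V3 was 0.340 (0.266 to 0.432) and that of V2a to V3 was 0.366 (0.294 to 0.453). Of 709 microRNAs with enough reads, 14.2% were lower by 2-fold or more in motoneurons than in V3, and 7.76% were so in V2a than in V3. The sums of both miR-199 strands passed that size in each comparison. The median log2 ratio of all 709 was 0.21 for motoneurons over V3 and 0.45 for V2a over V3, so most microRNAs ran the other way.

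miR-214-3p had another order, at 79.3 TPM in motoneurons (70.4 to 89.2), 119.8 TPM in V2a (110 to 130.5) and 63.3 TPM in V3 (55.8 to 71.4). It was highest in V2a, where the miR-199 strands were lowest or level with motoneurons. The ratio of motoneurons to V2a was 0.661 (0.571 to 0.765), that of V2a to V3 was 1.89 (1.63 to 2.20) and that of motoneurons to V3 was 1.25 (1.05 to 1.49). Scaled by the median of ratios, the log2 ratio of V2a to V3 was 0.43, against 0.92 as reported, and that of motoneurons to V3 was 0.08, against 0.32.

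miR-214-5p was near the limit of detection, at 3.66 TPM in motoneurons (13 reads), 1.78 TPM in V2a (8 reads) and 0.962 TPM in V3 (4 reads). The counting interval of the ratio of motoneurons to V2a included 1, from 0.79 to 5.72, and that to V3 ran from 1.18 to 16.0. The 5p strand was thus highest in motoneurons and the 3p strand in V2a, but at so few reads the place of V2a in the order of the 5p strand was not resolved.

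**Figure D4:**
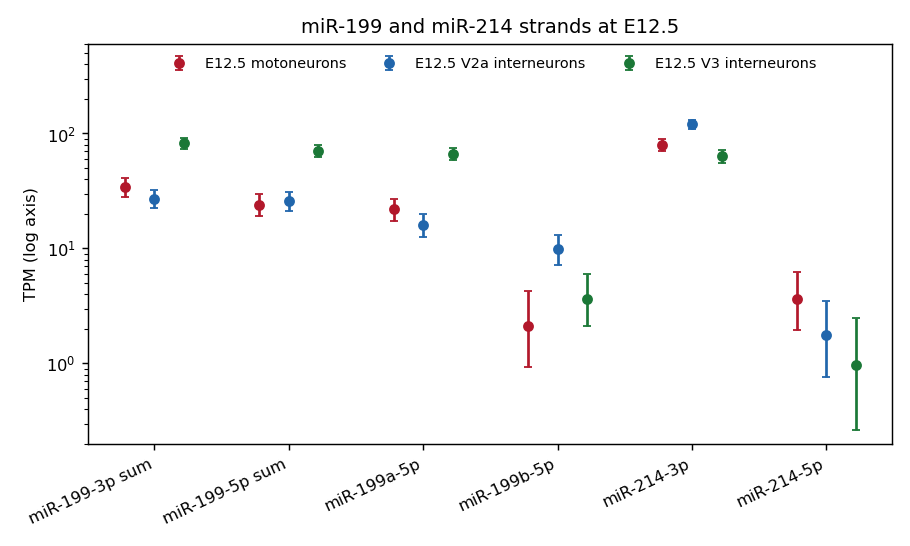
Level of the miR-199 and miR-214 strands in TPM on a log axis in the 3 E12.5 libraries; error bars are exact 95% Poisson intervals of the reads in 1 library. V3 lies highest for both miR-199 sums, at 82.2 and 70.4 TPM, and V2a lies highest for miR-214-3p, at 119.8 TPM.

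At E12.5 the 2 rows of the 3p strand carried the same value in each library, 17.0 TPM in motoneurons, 13.5 TPM in V2a and 41.1 TPM in V3. The division of shared reads was thus even there, unlike in 3 of the 4 E10.5 libraries. Of the 5p rows, miR-199a-5p was at 21.8 TPM in motoneurons, 15.9 TPM in V2a and 66.7 TPM in V3. miR-199b-5p was at 2.13, 9.80 and 3.66 TPM in the same libraries, or 8, 46 and 16 reads. As deposited, the V3 excess of the 5p strand lay in the a row, while the b row was highest in V2a. These rows share reads, and how the E12.5 reads were divided is not stated. The split between the a and b rows is therefore uncertain.

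The proportions among strands differed between the tables. The ratio of miR-199b-5p to miR-199a-5p was 0.0977 in motoneurons, 0.614 in V2a and 0.0549 in V3 at E12.5, below 1 in each, where all 4 E10.5 libraries were above 1. miR-214-3p exceeded miR-214-5p by 21.7 times in motoneurons, 67.3 times in V2a and 65.8 times in V3, against at most 7.05 times at E10.5. Per unit of the miR-199-3p sum, miR-214-3p was at 2.33 in motoneurons, 4.45 in V2a and 0.77 in V3, against at most 0.256 at E10.5. These ratios do not depend on the scaling of a library. Stage and table cannot be told apart, and the reads of miR-214-3p at E12.5 did not come out whole at its length of 22 bases (282 motoneuron reads after rounding from 281.7).

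**Figure D5:**
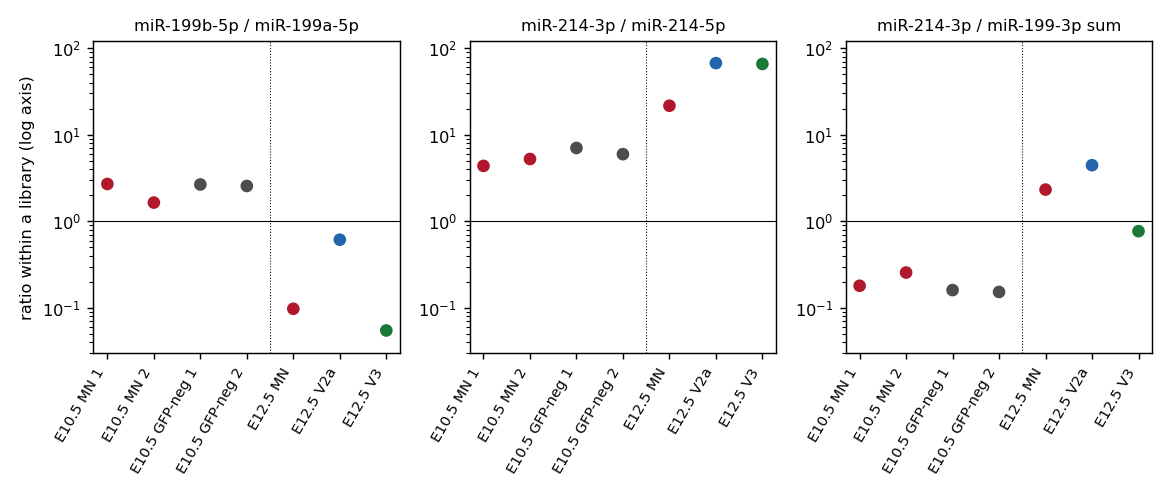
Ratios within each of the 7 libraries on a log axis: miR-199b-5p over miR-199a-5p, miR-214-3p over miR-214-5p, and miR-214-3p over the miR-199-3p sum; the dotted line separates the E10.5 table from the E12.5 table and MN stands for motoneurons. The first ratio lies above 1 at E10.5 and below 1 at E12.5, and the other two are higher in all 3 E12.5 libraries than in any E10.5 library.

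Set side by side without a test, the miR-199-3p sum was at 34.1 TPM in E12.5 motoneurons, and at 726 and 166 RPM in E10.5 motoneurons. miR-214-3p was at 79.3 TPM in E12.5 motoneurons, within the E10.5 motoneuron values of 131 and 42.6 RPM. Among the lists at E12.5, the other mesenchymal microRNAs summed to 419 TPM in motoneurons, 485 TPM in V2a and 348 TPM in V3, mostly from miR-140. miR-143-3p, the nearest in pattern at E10.5, was at 57.4 TPM in motoneurons, 71.5 TPM in V2a and 89.7 TPM in V3. The skeletal muscle list summed to 126 TPM in motoneurons, 221 TPM in V2a and 63.0 TPM in V3, but its members had different orders. miR-1a-3p, at 118 TPM in motoneurons, 41.2 TPM in V2a and 28.1 TPM in V3, made up most of the motoneuron sum. miR-206-3p, at 4.50 TPM in motoneurons, 175 TPM in V2a and 32.9 TPM in V3, made up most of the V2a sum. Both rows share reads with other rows, so these orders depend on how the reads were divided. The part of these cell types in the E12.5 values was not tested.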

How the data were processed

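Small RNAs of FACS-sorted spinal cells were sequenced (NEBNext small RNA libraries on HiSeq instruments, per the labels' protocols). The submitters' processing notes name Bowtie2. For the counting program, genome build and microRNA annotation, the name was not given in the sources used here. Per library, the deposited E10.5 table gives RPM and, per the file headers, a bundle for each row. Rows of 1 bundle share reads in fractions, which affects 184 of 1908 rows. No unit stands in the deposited E12.5 table. Its deposited values were taken to be FPKM, since most low ones came out as whole reads to within 0.05 at RefSeq mature lengths (79.2% in motoneurons, 74.6% in V2a and 80.7% in V3), and the remainder did not. Depths, reads and intervals at E12.5 rest on this reading. Each library was rescaled to a sum of 1000000 (TPM).

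Depth was found from the value of 1 read. After rows of a bundle were summed, 97.3% to 100.0% of low E10.5 values were whole reads to within 0.05, against 87.8% to 91.0% by row, so no count test was run. E12.5 reads used 22 bases for 3p strands and miR-214 and 23 bases for miR-199-5p. PCR copies are not independent molecules, so intervals account for counting error alone. For E10.5, log2(RPM + 1) values were fitted in limma 3.58.1 (R 4.3.3) by a two-sided moderated test with trended variance. On that scale the change of low microRNAs is understated. A row was tested when at least 2 libraries reached 15.2 RPM, the value of 10 reads at the median depth. P-values were adjusted by Benjamini-Hochberg over all tested rows, with a threshold of 0.05. For the miR-199 sums the fit was repeated with every bundle summed. At E12.5 the background was taken over the 709 rows with 10 reads at 22 bases in at least 2 libraries, on TPM + 1. The limma fit was tested on simulated reads, with log2 changes smaller in size than those of the members. Named microRNAs were the members, the marker lists and the 5 nearest in pattern. Members and lists were chosen with earlier results of these data known. miR-486a-5p and miR-486b-5p of the blood list matched no row name. In the motoneuron and the neuron list 2 of 2 members each were higher, where 57 of all 492 tested microRNAs were called higher. Of these members, miR-218-2-3p passed the filter through the motoneuron libraries alone, so its direction was fixed. Alternatives covered the pseudocount, the filter, the scaling, each library left out and a replicate block.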

Additional observations from a re-analysis of the deposited data

How the results depend on the processing

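All 6 rows were called lower at E10.5 under each alternative that kept all 4 libraries. Under those alternatives 100 to 163 microRNAs of the whole table were called lower, against 151 of 492 as reported. More than 492 were tested where only all-zero rows were removed. The ranges below cover all 10 alternatives run. The log2 fold change ranged from -9.03 to -6.33 for miR-199b-3p, -8.19 to -5.78 for miR-199b-5p, -7.51 to -5.82 for miR-199a-5p, -7.38 to -5.78 for miR-214-3p, -6.94 to -5.18 for miR-214-5p and -4.81 to -3.57 for miR-199a-3p, each with a limma adjusted p of at most 0.00389. For the summed strands it ranged from -8.11 to -5.99 (3p) and -7.98 to -5.79 (5p), with a limma adjusted p of at most 0.00882. The median over all tested microRNAs was -0.34 as reported, -0.07 with the median of ratios and 0.15 with quantile normalization.

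Counts over the whole table moved more, and the cause was not tested. Of the reported 151 lower and 57 higher, quantile normalization gave 100 and 114, removing only all-zero rows gave 34 higher, and leaving out 1 library gave 106 to 125 lower and 27 to 48 higher (29 and 27 without motoneuron replicate 1 and 2). With bundles summed, 124 were lower and 42 higher, quantile normalization gave 75 and 89, the median of ratios gave 65 higher, and leaving out 1 library gave 82 to 101 lower and 19 to 41 higher (82 lower without GFP-negative replicate 2, 23 and 19 higher without motoneuron replicate 1 and 2). A fit that leaves an arm with 1 library assumes that it varies like the other group. With the replicate block, 162 were lower and 67 higher by row, and 127 and 42 with bundles summed. Deviations of same-numbered libraries had a correlation of 0.26 over 492 microRNAs, but with 2 pairs the libraries share only a number. At E12.5 the median of ratios moved the log2 ratio of V2a to V3 to -2.10 for the miR-199-3p sum, -1.94 for the miR-199-5p sum and 0.43 for miR-214-3p, and that of motoneurons to V2a to -0.34 for miR-214-3p, in the reported direction. The E12.5 values rest on 1 library each, and counting error limits miR-214-5p and miR-199b-5p.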
